A study of Mus musculus with 15 samples.

Results

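The genes described here encode the proteins of the cytosolic ribosome in MPI cells, mouse macrophages that renew themselves in culture. They are the genes of the deposited table whose symbol begins with Rpl or Rps and a digit, together with Rplp0, Rplp1, Rplp2, Rpsa and Fau. The S6 kinases (Rps6k), Rps19bp1, Rpl7l1 and symbols that mark pseudogenes were left out. The rule took 83 of 10653 genes, 49 of the large subunit and 34 of the small subunit, and all 83 passed the filter on low values. None was listed at 0 in any library. Among them are Rpl3l, Rpl22l1, Rpl36al, Rps27l and Rps27rt, close relatives of Rpl3, Rpl22, Rpl36a and Rps27. The paralogs Rpl10l, Rpl26l1, Rpl39l and Rps4l, whose symbols the rule would take, were not among the genes it found in the table.

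All groups were MPI cells derived from fetal liver of female C57BL6/J mice and kept in medium with 30 ng/ml of the growth factor GM-CSF. For 24 h the cells received riebeckite asbestos at 9 µg/cm², cleavage fragments of riebeckite at 40 µg/cm², tremolite asbestos at 5 µg/cm² or cleavage fragments of tremolite at 60 µg/cm², and the last group is labelled untreated, although a general label also speaks of a vehicle control. Both minerals are amphiboles, asbestos being the fibrous habit and cleavage fragments the non-fibrous one. The doses had equal particle surface area, so the mass differed between the treatments. Each of the 5 groups had 3 libraries, and the labels do not tell if they were independent cultures. The p-values therefore reflect only the scatter among libraries, which may be technical.

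Levels are FPKM, fragments scaled to exon length and to the size of the library, and the read depth behind them is unknown. The sum of FPKM over all genes of a library ranged from 257329 to 273570, and 0 pairs of libraries held identical values. All 10 macrophage markers looked for were measured, among them Lyz2, Marco and Cd68, whereas none of the hepatocyte, erythroid, lymphocyte, mast cell or stromal markers was in the table. In every listed gene the highest group mean was at least 0.5003 FPKM. Absence from the table may therefore mean a low level rather than none. Of 7 neutrophil markers only S100a8 was measured, at 54.3 to 58.5 FPKM after riebeckite asbestos, 50.6 to 52.4 with riebeckite fragments, 31.3 to 41.5 with tremolite asbestos, 26.5 to 29.6 after tremolite fragments and 25.7 to 31.3 in untreated cells. In such bulk libraries fewer cells and less RNA per cell cannot be told apart, and a level is always relative to the other transcripts of its library.

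The ribosome translates mRNA. Its small subunit decodes the message and its large subunit joins the amino acids. Ribosomal proteins are made in the cytoplasm, and most are imported into the nucleolus and assembled there with ribosomal RNA. In mammals the mRNAs of ribosomal proteins begin with a terminal oligopyrimidine (TOP) tract, through which the kinase complex mTORC1 controls their translation and, with the protein Larp1, their stability. Subunits are needed in equal numbers, so these genes usually change little and together. The question addressed here is whether mineral particles changed the mRNAs of the large and the small subunit, and whether any change outlasts another scaling of the libraries.

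Ribosomal protein mRNAs were among the most abundant in these cells. In untreated cells the median member stood at 142.8 FPKM, against 7.58 FPKM for the median gene of the table. By mean over all libraries the highest members were Rplp1, an acidic stalk protein, at 781.9 ± 56.4 FPKM in untreated cells, Rpl17 at 736.8 ± 10.1, Rps15 at 670.6 ± 36.1, Rps3a1 at 650.1 ± 5.79 and Rpl8 at 572.6 ± 19.6 (SD, n = 3). Apart from the paralog Rpl3l at 0.744 ± 0.299 FPKM, the lowest were Rpl22l1 at 12.7 ± 1.86, Rps27rt at 11.6 ± 1.91, Rps20 at 29.8 ± 5.56 and Rps15a at 30.0 ± 1.54. In nearly all genes that could be checked, the value was divided by the length of all exons merged. Genes with long rare exons therefore read low. Rpl17 and Rpl8 did not follow this. Their gene values equalled those of their only listed transcripts, of 775 and 851 bases, though their merged exons had 1327 and 1359. The order of members by gene value therefore mixes these lengths. Summed over listed transcripts, each with its own length, the order changed. Rpl32 then led in untreated cells with 933.9 FPKM, Rps15 followed with 841.7, and the median member had 301.4. Annotated transcripts that are not listed are missing from this sum. Rps16, with 1 of 3 listed, had a mean sum of 80.2 FPKM over all libraries against a gene value of 146.9. Across the 83 members Spearman's rho between both measures was 0.807, and between the gene value and the merged exon length it was -0.601, both from the same libraries.

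Together the members took a smaller share of the library after every particle than in untreated cells. The large subunit genes held 3.45 ± 0.0825% of summed FPKM after riebeckite asbestos, 3.54 ± 0.134% with riebeckite fragments, 3.51 ± 0.142% with tremolite asbestos, 3.44 ± 0.0545% after tremolite fragments and 3.89 ± 0.121% in untreated cells (SD, n = 3 each). The small subunit genes held 2.11 ± 0.0496%, 2.20 ± 0.0757%, 2.15 ± 0.119% and 2.10 ± 0.0400% after the same treatments, and 2.41 ± 0.0686% in untreated cells. All 12 treated libraries lay below all 3 untreated ones for both subunits, and each comparison of 3 with 3 libraries gave p = 0.1 in an exact 2-sided permutation test, the smallest it allows. Relative to untreated cells the summed share of all members was lower by 11.8% after riebeckite asbestos, 8.88% after riebeckite fragments, 10.3% with tremolite asbestos and 12.1% after tremolite fragments. As summed FPKM, not divided by the total of the library, riebeckite fragment library 1 (16332) lay above untreated libraries 2 and 3 (16230 and 15789).

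**Figure D1:**
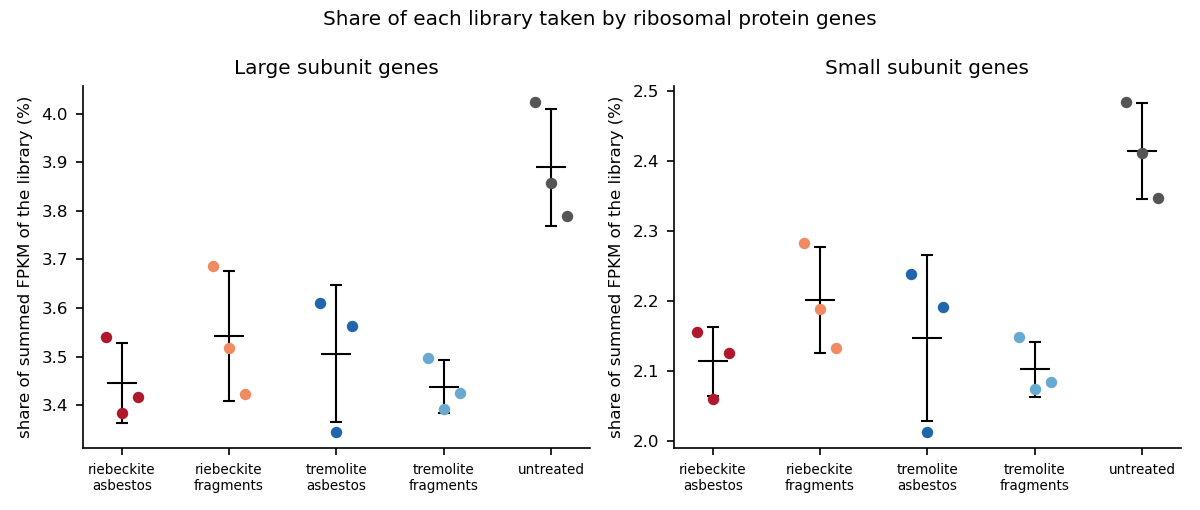
Share of the summed FPKM of each library held by 49 large subunit genes (left) and 34 small subunit genes (right), in percent, on axes that do not start at 0. Points are libraries, bars the mean and SD of 3, and every treated library lies below the untreated ones, of which the lowest were at 3.79% and 2.35%.

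Gene by gene the changes were small and mostly in 1 direction. After riebeckite asbestos 35 of the 83 members fell and 2 rose (limma, adjusted p under 0.05), where 24.3% of all 10616 genes tested fell and 21.0% rose. After riebeckite fragments 14 fell and 1 rose, against 23.1% and 15.3% of all genes, so the members' share of 16.9% lower was not above the background. After tremolite asbestos 22 fell and 0 rose, against 13.9% and 10.0% of all genes, and after tremolite fragments 36 fell and 0 rose, against 15.0% and 12.5%. At an unadjusted p under 0.05 in limma, in either direction, the 4 treatments gave 50, 28, 39 and 54 members, or 60.2, 33.7, 47.0 and 65.1%, against 51.8, 46.5, 35.8 and 37.8% of all genes. The share of members was again below the background after riebeckite fragments.

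The median log2 fold change of the members was -0.17 after riebeckite asbestos, -0.09 with riebeckite fragments, -0.13 with tremolite asbestos and -0.17 after tremolite fragments. The medians of all genes were -0.02, -0.04, -0.03 and -0.02. The change was negative in 74, 68, 79 and 80 members in the same order. Without overlap between the libraries, 51, 24, 38 and 57 members lay below untreated cells. These were 61.4, 28.9, 45.8 and 68.7% of members, against 29.6, 29.9, 23.9 and 25.5% of all genes. After riebeckite fragments the members' share was thus not above the background. Above untreated cells lay 1, 1, 0 and 0 members, against 25.7, 19.2, 15.9 and 19.6% of all genes.

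Large and small subunit genes moved by like amounts. Large subunit medians were -0.17, -0.10, -0.13 and -0.17 after riebeckite asbestos, riebeckite fragments, tremolite asbestos and tremolite fragments, and small subunit medians -0.16, -0.08, -0.13 and -0.16. Of 49 large subunit genes 22, 11, 14 and 24 fell, and of 34 small subunit genes 13, 3, 8 and 12. In percent these were 44.9, 22.4, 28.6 and 49.0% of the large and 38.2, 8.82, 23.5 and 35.3% of the small subunit. Of all genes 24.3, 23.1, 13.9 and 15.0% fell. After riebeckite fragments both subunits were thus below the background, the small subunit at 8.82%. The difference between the subunits was not tested. Across the 83 members Spearman's rho of the log2 fold change with the level, the transcript sum, the merged exon length or the length of the leading transcript lay between -0.21 and -0.01, a description of members that share the same libraries.

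**Figure D2:**
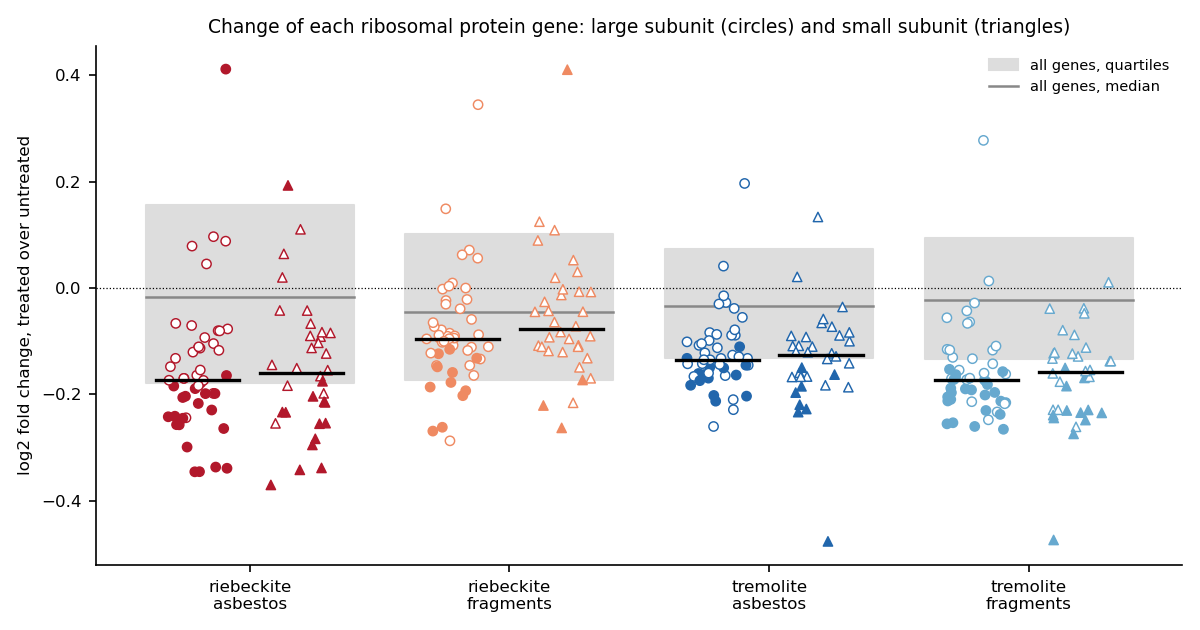
log2 fold change of each of 83 ribosomal protein genes, treated over untreated on the log2(FPKM + 1) scale, with large subunit genes as circles and small subunit genes as triangles. Filled symbols passed adjusted p under 0.05, black lines are subunit medians (between -0.17 and -0.08), and grey bands give the quartiles and median of all genes tested.

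These counts rested in part on single libraries. Without untreated library 1, the untreated library with the highest members, 28 members fell after riebeckite asbestos, 8 with riebeckite fragments, 8 with tremolite asbestos and 21 after tremolite fragments. In percent these were 33.7, 9.64, 9.64 and 25.3%, against 22.9, 21.5, 12.0 and 13.2% of all genes in the same fit, so riebeckite fragments and tremolite asbestos were then below the background. After tremolite asbestos 12 members (14.5%, against 10.2% of all genes) fell without untreated library 2, and 9 (10.8%, against 13.0%) without its own library 2. For riebeckite fragments the count was 26 (31.3%, against 19.1%) without their library 1 and 7 (8.43%, against 21.4%) without their library 3. For tremolite fragments it was 22 (26.5%, against 12.3%) without their library 2. The members' medians were negative in all of these fits.

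Members shifted together from library to library. Relative to its own mean over all libraries, on the log2 scale, the median member stood in libraries 1, 2 and 3 at -0.02, -0.09 and -0.05 after riebeckite asbestos, at 0.115, 0.01 and -0.04 with riebeckite fragments, at 0.04, -0.13 and 0.02 with tremolite asbestos, at -0.03, -0.09 and -0.06 with tremolite fragments, and at 0.17, 0.105 and 0.07 in untreated cells. Library 1 was the highest of its group in all 5 groups, and riebeckite fragment library 1 stood above untreated libraries 2 and 3. With only the libraries numbered 2 and 3, an alternative chosen after seeing the data, 31, 13, 12 and 18 members fell in the 4 treatments. These were 37.3, 15.7, 14.5 and 21.7% of members, against 18.9, 17.0, 7.92 and 9.74% of all genes in that fit. The labels give no batch or date for the numbers, and the part of a batch was not tested.

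**Figure D3:**
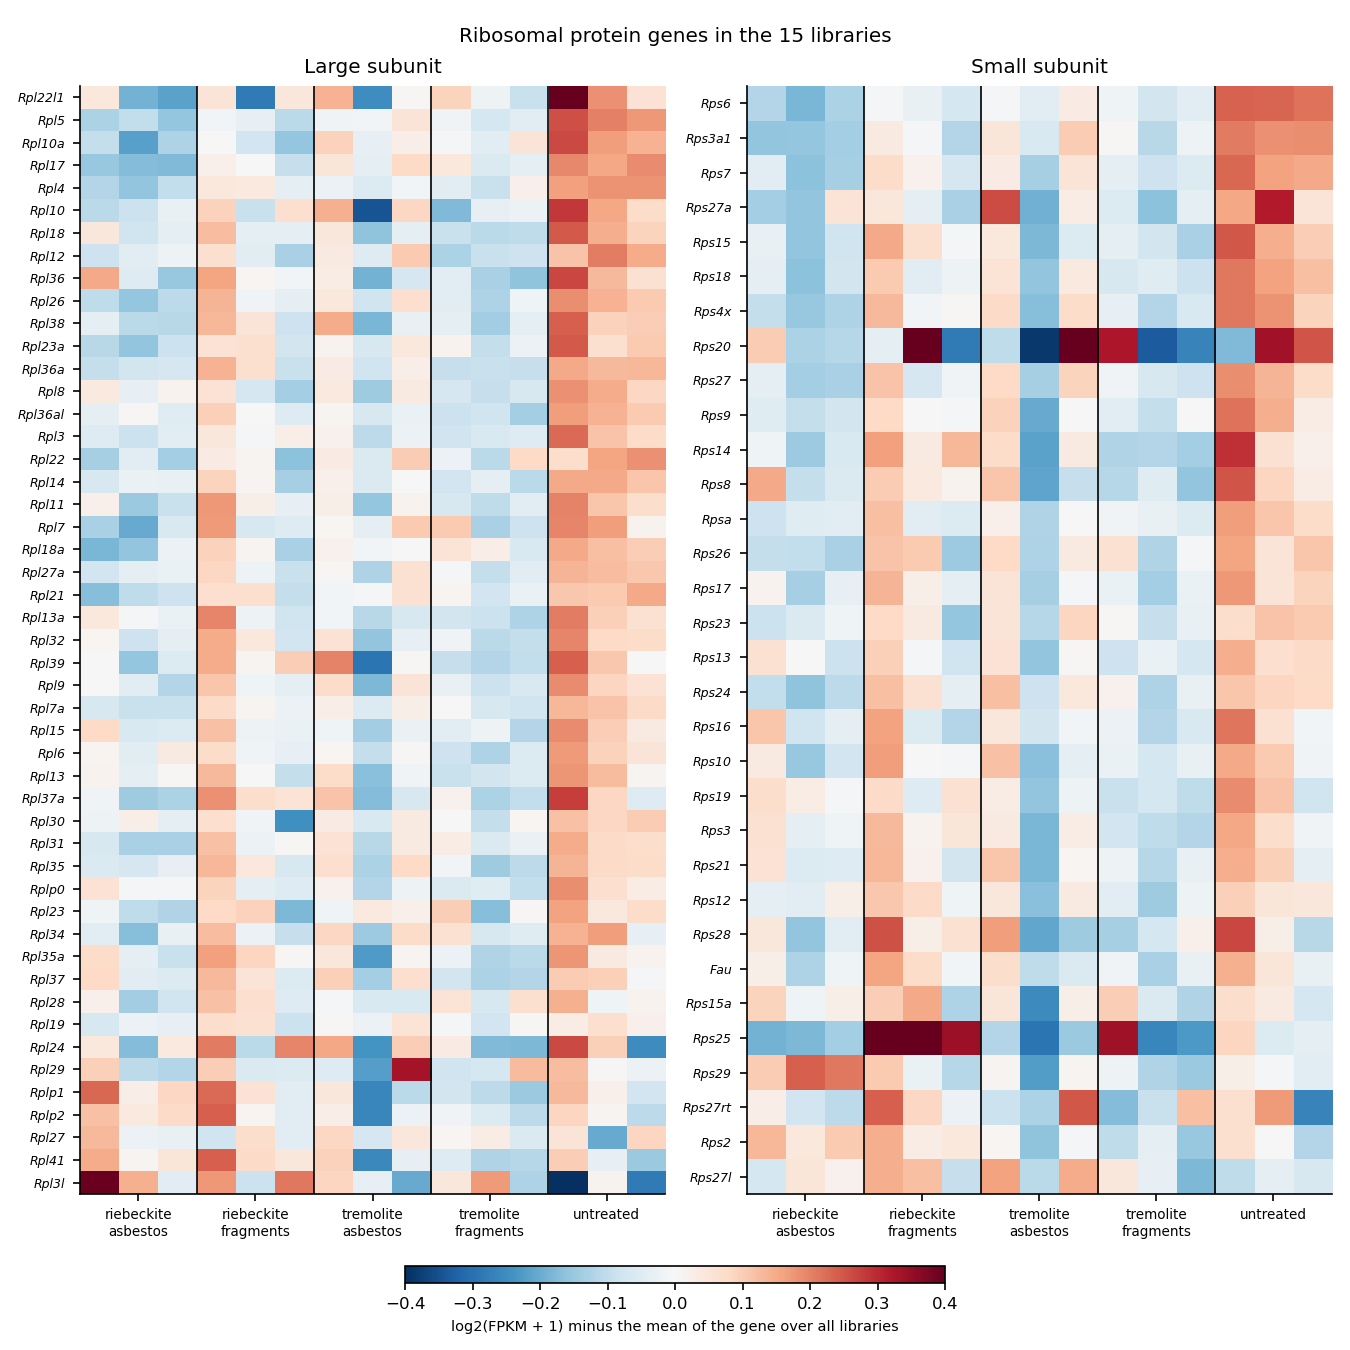
Level of the ribosomal protein genes reported here in the 15 libraries as log2(FPKM + 1) minus its mean over all libraries (red above, blue below, colour limited to 0.4), with libraries 1 to 3 of each group from left to right. Genes are ordered by how far untreated cells exceed treated ones. Most rows are red in the 3 untreated columns, and tremolite asbestos library 2 is blue in most rows, with a median of -0.13.

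Of the 83 members, 10 fell in all 4 treatments, 11 in 3, 10 in 2, 14 in 1 and 38 in none. In percent these were 12.0, 13.3, 12.0, 16.9 and 45.8% of members, against 8.7, 4.53, 8.5, 10.8 and 67.4% of all genes tested. The change was negative in all 4 treatments in 67 members and positive in all 4 in Rpl3l, Rps27l and Rpl27. All 4 comparisons share the untreated libraries, so these counts are not independent evidence. The 10 were Rps6, Rps3a1 and Rps7 of the small subunit and Rpl3, Rpl4, Rpl5, Rpl10a, Rpl14, Rpl17 and Rpl36al of the large subunit.

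Rps6, the small subunit protein that S6 kinases phosphorylate, had the smallest p of its subunit in every treatment (ENSMUSG00000028495.14, chromosome 4, 86854660 to 86857412, minus strand, GRCm38). It was at 254, 243 and 253 FPKM after riebeckite asbestos, 275, 270 and 263 with riebeckite fragments, 275, 268 and 282 with tremolite asbestos, 272, 262 and 267 after tremolite fragments, and 325, 324 and 321 in untreated cells. The highest treated library, at 282 FPKM, lay well below the lowest untreated one, and the riebeckite asbestos libraries were the lowest 3 of 15. The log2 fold changes were -0.37, -0.26, -0.23 and -0.27 in that order (SE 0.0287, limma adjusted p = 2.83e-07, 1.00e-05, 6.26e-05 and 1.11e-05). Of its annotated transcripts 1 is listed, and that transcript gave another picture, with 365, 391 and 396 FPKM after riebeckite asbestos and 467, 453 and 452 in untreated cells, but 319 in tremolite asbestos library 2 and 324 in tremolite fragment library 3. As a sum of transcripts Rps6 was not called in any treatment (limma adjusted p = 0.0782, 0.452, 0.0983 and 0.0907).

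Rpl5, which with Rpl11 and 5S RNA forms a particle that also binds the p53 inhibitor Mdm2, led the large subunit after riebeckite asbestos, riebeckite fragments and tremolite fragments (ENSMUSG00000058558.12, chromosome 5, 107900502 to 107909005, plus strand). Its levels were 121, 123 and 118 FPKM after riebeckite asbestos, 131, 129 and 122 with riebeckite fragments, 131, 131 and 137 with tremolite asbestos, 131, 126 and 128 after tremolite fragments, and 158, 152 and 149 in untreated cells. The groups did not overlap with untreated cells, and Rpl5 was lower by 21.1, 16.7, 13.2 and 16.2% (log2 -0.34, -0.26, -0.20 and -0.25, SE 0.0336, limma adjusted p = 3.07e-06, 4.21e-05, 0.000747 and 8.76e-05). Its partner Rpl11 was at 84.2 ± 5.11, 92.0 ± 6.93, 86.1 ± 5.87 and 84.2 ± 1.70 FPKM after the same treatments, against 96.7 ± 4.44 in untreated cells (SD, n = 3 each). Rpl11 was called lower after riebeckite asbestos and tremolite fragments (limma adjusted p = 0.0198 and 0.0322), and not after riebeckite fragments or tremolite asbestos (-0.07 and -0.17). Both calls of Rpl11 ended without untreated library 1, and that after tremolite fragments also under TMM rescaling.

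Rpl4 and Rpl3 are large proteins that reach deep into the core of the large subunit, Rpl4 near the exit tunnel and Rpl3 near the peptidyl transferase centre. Rpl4 was at 359, 349 and 364 FPKM after riebeckite asbestos, 401, 400 and 380 with riebeckite fragments, 383, 375 and 386 with tremolite asbestos, 377, 366 and 395 after tremolite fragments, and 436, 441 and 441 in untreated cells. All treated libraries lay below the untreated ones, with log2 fold changes of -0.30, -0.16, -0.20 and -0.21 (SE 0.0319, limma adjusted p = 5.97e-06, 0.00151, 0.000471 and 0.000248). Rpl3 averaged 130.5 ± 1.96 FPKM after riebeckite asbestos, 138.3 ± 2.46 with riebeckite fragments, 132.8 ± 5.71 with tremolite asbestos, 130.3 ± 1.26 after tremolite fragments and 150.0 ± 8.28 in untreated cells (-0.20, -0.12, -0.17 and -0.20). Its call after tremolite asbestos was lost when only those 2 groups were fitted (limma adjusted p = 0.0576), and that after riebeckite fragments was lost under 8 of 27 alternatives.

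Rps3a1, a small subunit protein that contacts initiation factor eIF3, was at 510, 511 and 518 FPKM after riebeckite asbestos, 584, 567 and 524 with riebeckite fragments, 588, 545 and 611 with tremolite asbestos, 571, 527 and 561 after tremolite fragments, and 657, 646 and 648 in untreated cells. Riebeckite asbestos gave the 3 lowest libraries and the closest triplet. The log2 fold changes were -0.34, -0.22, -0.16 and -0.23 (SE 0.0469, limma adjusted p = 5.70e-05, 0.00220, 0.0227 and 0.00213). The other members of the 10 ranged from -0.35 for Rpl17 after riebeckite asbestos to -0.12 for Rpl36al after riebeckite fragments. Alternatives of scaling, fit and libraries set these 10 apart. Rpl4 and Rpl5 were called lower in all 4 treatments under each of 27 alternatives, with a highest limma adjusted p of 0.0320, and Rps6 under all but the sum of transcripts. After tremolite asbestos Rps3a1, Rps7, Rpl10a, Rpl14, Rpl17 and Rpl36al lost the call under TMM rescaling (limma adjusted p = 0.0507 to 0.153), and so did Rps7, Rpl3, Rpl14 and Rpl36al after riebeckite fragments (0.109 to 0.239). Untreated library 1 decided the calls of Rps3a1, Rps7, Rpl10a and Rpl14 after tremolite asbestos, of Rps7, Rpl3, Rpl14 and Rpl36al after riebeckite fragments and of Rpl10a after tremolite fragments, all of which ended without it. Without untreated library 2 the calls of Rps3a1, Rpl10a and Rpl14 after tremolite asbestos and of Rpl14 and Rpl36al after riebeckite fragments ended as well, and tremolite asbestos library 2 and riebeckite fragment library 3 decided 3 and 4 of the calls of their own treatment. Tremolite asbestos library 3 decided 2 such calls, riebeckite fragment library 2 another 2, and tremolite fragment library 2 and untreated library 3 decided 1 each. Of the 110 called changes of all members, 44 were called under every alternative.

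The bases around the transcription start of 5 members that fell in all 4 treatments are shown with those of Rps27l, Rps25 and Rpl27, which did not, because the TOP tract is the feature these mRNAs are known to share. Promoter sequences of RefSeq (GRCm38.p6) matched 63 of the 83 members and 8 of the 10 that fell in all 4. The 5 shown are those of the 8 with the run defined next, and Rps3a1, Rpl10a and Rpl36al had no such run. Capitals mark the longest run of at least 8 C or T that begins with C and touches the 25 bases before or after the annotated start, on the strand of the gene, with 30 bases given in all.
Rps6 (chr4:86857349-86857378, minus): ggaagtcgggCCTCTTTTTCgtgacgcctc
Rps7 (chr12:28635910-28635939, minus): tgtccccaCCTCTTTTCTTCCgccacccgg
Rpl4 (chr9:64173362-64173391, plus): tgacaagtCTTTCCTTTTCCTgtgggagca
Rpl5 (chr5:107900498-107900527, plus): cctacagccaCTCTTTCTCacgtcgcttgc
Rpl14 (chr9:120571501-120571530, plus): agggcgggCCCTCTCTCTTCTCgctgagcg
Rps27l (chr9:66946054-66946083, plus): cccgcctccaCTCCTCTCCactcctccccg
Rps25 (chr9:44407684-44407713, plus): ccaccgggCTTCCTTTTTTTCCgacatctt
Rpl27 (chr11:101442230-101442259, plus): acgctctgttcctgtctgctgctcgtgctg

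The run began 1 base before the annotated start in Rps6, 17 before it in Rpl4 and 22 after it in Rps7. Whether each run is the TOP tract of its mRNA was not tested. Rpl27 had no such run in this window, which says only that these letters are not there. Such a run stood in 53.3% of 75 promoters of members, in 19.2% of promoters of genes of the deposited table and in 19.3% of all 32851 promoters. Of 34 members with the run 5 fell in all 4 treatments and 13 in none, and of 29 without it 3 and 17. By treatment 18, 6, 10 and 15 of the 34 fell, and 9, 5, 7 and 11 of the 29. Median log2 fold changes were -0.18, -0.09, -0.14 and -0.17 with the run and -0.10, -0.09, -0.12 and -0.16 without it, and the difference was not tested.

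Of other motifs searched on both strands over 250 bases before to 50 after the start, the ETS-type motif CCGGAAG stood in 34.7% of member promoters, 19.3% of those of genes of the deposited table and 8.86% of all promoters. The motif AAGATGGC, which the factor YY1 is known to bind, stood in 10.7, 4.85 and 2.75%. The GC box GGGCGG (60.0, 63.2 and 35.7%) and TATAAA (9.33, 6.80 and 13.6%) showed smaller gaps between members and genes of the table. The 20 members without a promoter in the table, among them Rps29, Rpl3 and Rpl17, were not examined for motifs. By position the members were spread over 20 chromosomes, with 14 on chromosome 7.

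Rps15, which belongs to the head of the small subunit, was at 585, 536 and 566 FPKM after riebeckite asbestos, 664, 625 and 594 with riebeckite fragments, 616, 528 and 576 with tremolite asbestos, 583, 568 and 547 with tremolite fragments, and 711, 661 and 640 in untreated cells. The libraries lay below all untreated ones in every group but riebeckite fragments, which overlapped with them. Rps15 fell after riebeckite asbestos, tremolite asbestos and tremolite fragments (-0.25, -0.23 and -0.24), and was not called after riebeckite fragments (-0.10). Its call after tremolite asbestos ended without untreated library 1 or tremolite asbestos library 2 and under TMM rescaling (limma adjusted p = 0.0617, 0.0589 and 0.0632), and with only these groups fitted (0.0544).

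Of the 3 genes of the ribosomal stalk, which recruits the elongation factors, Rplp1 and Rplp2 were called in no treatment. Rplp1 was at 899, 781 and 813 FPKM after riebeckite asbestos, 898, 798 and 746 with riebeckite fragments, 791, 641 and 712 with tremolite asbestos, 730, 713 and 692 after tremolite fragments, and 840, 778 and 728 in untreated cells. The libraries overlapped in all 4 comparisons, with log2 fold changes of 0.09, 0.06, -0.13 and -0.13. Rplp2 had log2 fold changes of 0.08, 0.07, -0.08 and -0.06. The lack of a call does not show that they did not change. Rplp0, the base of the stalk, was called lower after tremolite fragments, at 377.5 ± 6.88 FPKM against 423.0 ± 24.6 in untreated cells (SD, n = 3 each, -0.16, limma adjusted p = 0.0259), and had -0.08, -0.09 and -0.13 in the other comparisons. This call ended under TMM rescaling and without untreated library 1 or tremolite fragment libraries 1 or 3.

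Other members with roles beyond the core varied as well. Rpsa, which also occurs as a laminin receptor, fell after riebeckite asbestos, tremolite asbestos and tremolite fragments (-0.18, -0.15 and -0.15) and had -0.11 after riebeckite fragments. As a sum of transcripts Rpsa was not called in any of these (limma adjusted p = 0.135 to 0.788), and both tremolite calls ended under TMM rescaling and without untreated libraries 1 or 2. Fau, made as a fusion of a ubiquitin-like protein with the ribosomal protein eS30, and Rps27a, made as a fusion with ubiquitin, were called in none (-0.09, 0.02, -0.08 and -0.11, and -0.25, -0.22, -0.14 and -0.26). Rps2, at the entry of the mRNA channel, had 0.11, 0.09, -0.04 and -0.08, and Rpl10, the protein whose joining completes the large subunit, -0.24, -0.15, -0.21 and -0.25, and neither was called. Rps4x fell after riebeckite asbestos and tremolite fragments (-0.28 and -0.23), and Rpl7a, Rpl12 and Rps18 each fell in 3 treatments. Of these the calls of Rpl12 held under every alternative, whereas those of Rpl7a and Rps18 after tremolite asbestos and of Rps4x after tremolite fragments ended without untreated library 1.

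Only Rps25, Rps29 and Rpl3l rose in any treatment, each in 1. Rps25 is a small subunit protein needed by some viral internal ribosome entry sites (ENSMUSG00000009927.9, chromosome 9, 44407139 to 44410427, plus strand). It was at 61.1, 61.5 and 63.4 FPKM after riebeckite asbestos, 96.0, 94.2 and 88.7 with riebeckite fragments, 64.3, 56.9 and 62.8 with tremolite asbestos, 88.5, 58.1 and 59.4 after tremolite fragments, and 74.1, 67.2 and 67.8 in untreated cells. All 3 riebeckite fragment libraries and 1 of the 3 tremolite fragment libraries lay above untreated cells, and the other 8 treated libraries lay below them. The log2 fold change after riebeckite fragments was 0.41 (SE 0.119, limma adjusted p = 0.0154), and 0.49 as a sum of transcripts. The call was lost without untreated library 2 (limma adjusted p = 0.0509).

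After riebeckite asbestos Rps29, a small zinc-binding protein of the small subunit, was at 409, 449 and 441 FPKM, against 387, 378 and 370 in untreated cells (0.19, SE 0.0682, limma adjusted p = 0.0344). The groups did not overlap, but the call was lost when any of 5 libraries was left out (riebeckite asbestos 2 or 3, untreated 1, 2 or 3) with a limma adjusted p of 0.0509 to 0.108, and after rescaling to nuclear genes (0.0675). Rpl3l, a paralog of Rpl3 known from muscle, was at 1.69, 1.26 and 0.992 FPKM against 0.478, 1.07 and 0.685 in untreated cells, and the groups overlapped (0.41, limma adjusted p = 0.0297). Its call was lost without riebeckite asbestos libraries 1 or 2 or untreated libraries 1 or 3 (limma adjusted p = 0.129, 0.0568, 0.124 and 0.0774), and with only libraries 2 and 3 or only these groups fitted (0.396 and 0.0736).

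**Figure D4:**
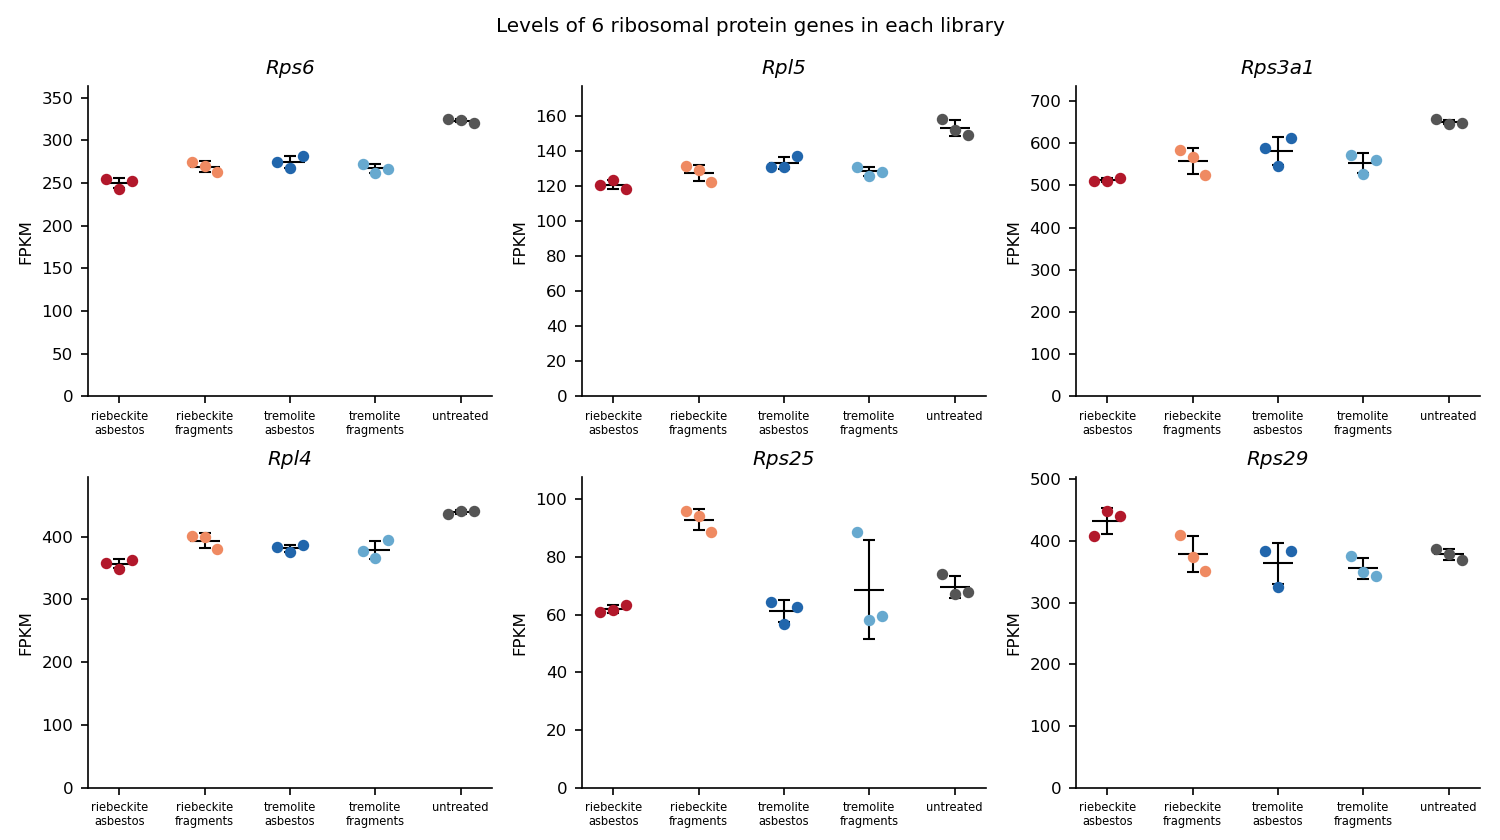
FPKM of Rps6, Rpl5, Rps3a1, Rpl4, Rps25 and Rps29 in each library, with the mean and SD of 3 libraries per group and axes from 0. Rps6, Rpl5, Rps3a1 and Rpl4 are lower in every treated library than in untreated cells, Rps25 is higher in the 3 riebeckite fragment libraries and in 1 tremolite fragment library, and Rps29 is higher after riebeckite asbestos.

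Paralogs can be set beside their partners. Rpl3l was at 1.32 ± 0.354 FPKM and Rpl3 at 130.5 ± 1.96 after riebeckite asbestos. Rpl22l1 fell after riebeckite asbestos, to 9.76 ± 1.08 FPKM against 12.7 ± 1.86 in untreated cells (SD, n = 3 each, -0.35, limma adjusted p = 0.0377), and Rpl22, an RNA-binding protein that represses Rpl22l1 in mouse cells, fell to 55.3 ± 2.06 against 65.5 ± 2.69 (-0.24, limma adjusted p = 0.00623), a call that held under every alternative, whereas that of Rpl22l1 was lost under 7 of 27. Rpl36al and Rpl36a fell together after riebeckite asbestos (-0.16 and -0.22), tremolite asbestos (-0.16 and -0.14) and tremolite fragments (-0.24 and -0.23), and for Rpl36a the tremolite asbestos call was lost under 15 of 27 alternatives. Rps27l, a p53 target in human and mouse cells, had 0.06, 0.12, 0.13 and 0.01 and was not called, whereas Rps27 fell after riebeckite asbestos and tremolite fragments (-0.23 and -0.18, the second call lost under 8 of 27 alternatives). Rps27rt, at 9.44 to 13.9 FPKM in all libraries, was not called. Rpl39 was at 81.1 ± 4.42 FPKM after riebeckite asbestos against 92.3 ± 7.71 in untreated cells and was not called. Reads of near-identical copies, to which the many processed copies of ribosomal protein genes add, can be split uncertainly.

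Between treatments few members were called. Riebeckite asbestos against its fragments gave 4 lower and 0 higher members, against 3.85% and 6.71% of all genes, namely Rps25 (-0.58), Rpl4 (-0.14), Rpl17 (-0.14) and Rps6 (-0.11). Tremolite asbestos against its fragments gave 0 and 0 in limma (1 member at an unadjusted p under 0.05), against 0.556% and 0.386%. Riebeckite against tremolite asbestos gave 7 lower, against 11.0% of all genes, and 1 higher, against 15.5%. The 7 were Rps3a1, Rps6, Rpl4, Rpl5, Rpl10a, Rpl17 and Rpl21, between -0.10 and -0.20, and the higher one was Rps29 (0.25, limma adjusted p = 0.0159). Riebeckite against tremolite fragments gave 0 lower and 1 higher, Rps25 (0.46, limma adjusted p = 0.0269), against 6.01% and 5.31%. The difference of the asbestos effects between the minerals was called for 0 members in limma (18 at an unadjusted p under 0.05), against 1.28% of all genes lower and 2.65% higher. These comparisons share libraries among themselves, so their directions and overlaps are given as descriptions. Between riebeckite asbestos and its fragments the change was negative in 72 of 83 members, with a median of -0.08 against 0.02 over all genes. In 18 members (21.7%) the riebeckite asbestos libraries lay wholly below those of the fragments and in 0 wholly above, against 11.0% and 18.0% of all genes. Between riebeckite and tremolite fragments the change was positive in 75 of 83 members and in all 34 of the small subunit, with a median over the 83 of 0.08 against -0.02 over all genes. Libraries of riebeckite fragments lay wholly above those of tremolite fragments in 28 members (33.7%) and wholly below in 0, against 13.4% and 18.6% of all genes. The difference of the asbestos effects between the minerals was negative in 75 of 83 members, with a median of -0.12 against 0.03 over all genes.

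Transcripts gave the same direction with fewer calls. The 83 members had 212 listed transcripts, 32 had 1 each, and Rps6, Rps29, Rps4x and Rpl4 were among those. After riebeckite asbestos, riebeckite fragments, tremolite asbestos and tremolite fragments 26, 10, 8 and 19 of the 212 fell (limma). Of all 22038 transcripts 6.24, 5.44, 2.42 and 3.03% fell. After riebeckite fragments 10 of 212 was thus below the 5.44% of all transcripts. In each treatment 0 of the 212 rose, against 6.78, 4.91, 2.6 and 3.26% of all transcripts. Median log2 fold changes were -0.16, -0.07, -0.14 and -0.16, where all transcripts had 0.01, -0.01, -0.02 and -0.01. Rpl4-201, Rpl5-201, Rpl17-201 and Rps24-207 fell in all 4 treatments.

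How far the members fell depended on the scaling of the libraries. TMM rescaling, which sets the bulk of genes to no change, left 31, 7, 6 and 23 members lower after riebeckite asbestos, riebeckite fragments, tremolite asbestos and tremolite fragments. All genes were then lower in 22.9, 18.2, 10.3 and 12.8% and higher in 22.5, 18.7, 12.5 and 14.3%. The members' counts for riebeckite fragments and tremolite asbestos, 7 and 6 of 83, were then below the background. Quantile normalization gave 56, 38, 39 and 49 lower members, with 25.6, 21.1, 13.1 and 14.9% of all genes. Rescaling to the summed FPKM of nuclear genes gave 61, 43, 40 and 51, with 29.7, 30.5, 16.1 and 15.5% of all genes lower and 16.7, 12.2, 8.64 and 11.2% higher, and rescaling to all genes other than the members 58, 42, 39 and 54, with 26.8, 29.9, 16.4 and 16.7% lower and 18.0, 12.3, 8.46 and 10.8% higher. The last of these leaves the members, whose share was lower in every treated library, out of the total. That adds to their drop by construction. The median of the members was negative in all 4 treatments under every scaling, at -0.15, -0.05, -0.10 and -0.15 after TMM rescaling and -0.22, -0.15, -0.16 and -0.18 after rescaling to nuclear genes.

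Transcripts of the mitochondrial genome, which take part in that total, held 6.44 ± 0.419% of summed FPKM after riebeckite asbestos, 7.91 ± 0.395% with riebeckite fragments, 8.15 ± 0.172% with tremolite asbestos, 8.42 ± 0.281% after tremolite fragments and 8.65 ± 0.181% in untreated cells. As a share of genes not encoded by mitochondria the members were lower by 13.9, 9.60, 10.8 and 12.3% in the 4 treatments. Since the mitochondrial share was itself lower in the treated cells, leaving it out of the total makes these drops larger by construction.

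**Figure D5:**
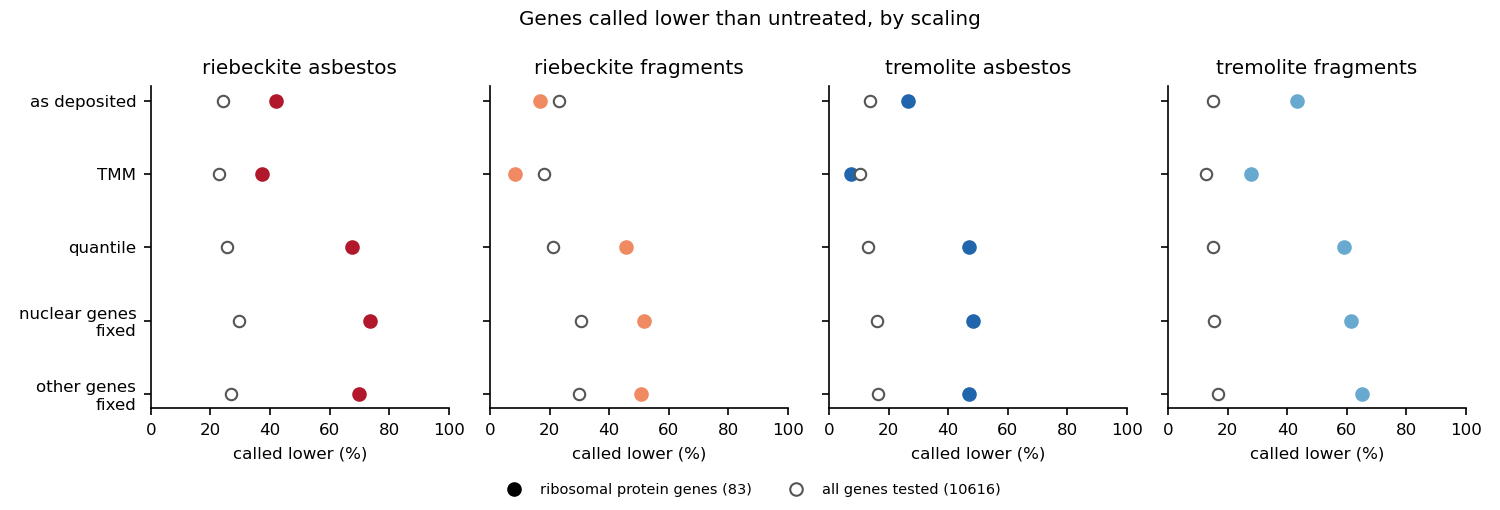
Percentage of the 83 ribosomal protein genes (filled) and of all 10616 genes tested (open) called lower than in untreated cells under 5 scalings of the libraries, for each treatment. Filled points lie right of open ones except for riebeckite fragments as deposited, with 16.9% against 23.1%, and for riebeckite fragments and tremolite asbestos under TMM rescaling. Rescaling to other genes leaves the members out of the total, which adds to their drop by construction.

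Lists of other translation genes, chosen with earlier results known, can be read against the same background of all genes. Of all genes tested 24.3, 23.1, 13.9 and 15.0% fell after riebeckite asbestos, riebeckite fragments, tremolite asbestos and tremolite fragments. In the same order 21.0, 15.3, 10.0 and 12.5% rose. Rack1, a signalling scaffold on the small subunit whose symbol falls outside the name rule, fell after riebeckite fragments and tremolite asbestos (-0.31 and -0.30). Of 16 other TOP mRNAs 13, 10, 9 and 9 fell after riebeckite asbestos, riebeckite fragments, tremolite asbestos and tremolite fragments. In the same order 0, 1, 0 and 1 rose. Their shares lower were 81.2, 62.5, 56.2 and 56.2%. Their medians were -0.25, -0.13, -0.13 and -0.12. Nap1l1, a histone chaperone gene, fell in all 4 (-0.55, -0.53, -0.25 and -0.43), as did the elongation factor genes Eef1b2 (-0.41, -0.27, -0.24 and -0.25) and Eef1g (-0.24, -0.28, -0.33 and -0.35).

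Of 34 initiation factor genes 13, 16, 9 and 12 fell and 2, 0, 0 and 1 rose. The shares lower were 38.2, 47.1, 26.5 and 35.3%, against 24.3, 23.1, 13.9 and 15.0% of all genes. Among the initiation factors Eif3e was lower by 0.46, 0.32, 0.22 and 0.28 on the log2 scale. Of 11 elongation and termination factor genes 7, 6, 5 and 7 fell (63.6, 54.5, 45.5 and 63.6%) and 1, 0, 0 and 0 rose. Of 70 ribosome assembly factor genes 33, 45, 35 and 41 fell and 1, 0, 0 and 0 rose, with medians of -0.16, -0.22, -0.17 and -0.21. Among these the snoRNP protein gene Nop58 was at 4.0 ± 0.192 FPKM after riebeckite asbestos against 6.38 ± 0.492 in untreated cells (SD, n = 3 each, -0.56, limma adjusted p = 9.05e-06). Riebeckite fragments thus went with calls in 45 of 70 assembly factors and in 14 of 83 ribosomal proteins. The difference between these shares was not tested.

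Of 15 genes of RNA polymerase I and ribosomal RNA transcription 6, 7, 3 and 3 fell and 1, 1, 0 and 0 rose. Of 19 tRNA synthetase genes 9, 12, 8 and 10 fell and 3, 0, 0 and 0 rose. Of 25 genes of mTORC1 and TOP control 3, 4, 2 and 1 fell and 3, 1, 0 and 0 rose, with medians between -0.01 and 0.02. Their shares lower, 12.0, 16.0, 8.0 and 4.0%, were below those of all genes (24.3, 23.1, 13.9 and 15.0%) in each treatment. The S6 kinase gene Rps6kb1 fell after both riebeckite treatments (-0.24 and -0.16). Mitochondrial ribosomal proteins, which build another ribosome, had medians of -0.01, -0.07, -0.05 and -0.07. Of these 78 genes 12, 20, 11 and 12 fell and 10, 4, 5 and 5 rose. Their shares lower of 15.4, 25.6, 14.1 and 15.4% were below that of all genes after riebeckite asbestos and close to it in the other treatments. Mrpl52 rose in all 4 treatments, standing at 20.6 ± 1.32 FPKM after riebeckite asbestos against 7.98 ± 0.405 in untreated cells (SD, n = 3 each).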

How the data were processed

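The authors deposited tables of 10653 genes and 22795 transcripts in 15 libraries, with FPKM as the unit the deposited values point to. Per the labels' protocols, mRNA was selected with oligo(dT) beads and libraries used dUTP second strands. The submitters' processing notes name cutadapt, HISAT2, StringTie and the build GRCm38, and versions are not given in the sources used. In 419 of 426 genes with several transcripts, all listed (98.36%, tolerance 1%), the gene value was the length-weighted transcript sum over merged exons of GENCODE M21. Genes with unlisted transcripts, among them Rpl17 and Rpl8, were not part of this check. Members and lists were chosen with earlier results of these data known.

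A minimum of 0.5 FPKM in 3 libraries left 10616 genes. Their log2(FPKM + 1), computed from the deposited FPKM, entered limma 3.58.1 (R 4.3.3) in 1 fit of all groups with a mean-variance trend, and p-values were adjusted by Benjamini-Hochberg within each comparison over all genes. Transcripts were tested likewise. Fold changes understate the change of low genes. Shares were compared by exact 2-sided permutation. Named are, per treatment and subunit, up to 5 members with the smallest p in each direction, the 5 highest and 5 lowest members, stalk, 5S particle, fusion and core genes, paralogs with partners, and up to 4 genes of each other list. Results of some genes are not reported here. The code was tested on simulated data. Read depth is unknown, so no counting interval is given. Alternatives are described with their effects below. Python 3.11.15 and matplotlib 3.10.9 drew the plots.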

Additional observations from a re-analysis of the deposited data

How the results depend on the processing

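Medians of both subunits stayed negative in all 4 treatments under every alternative run. The 110 called changes of members gave 2969 values under alternatives, of which 2623 kept direction and call, 346 lost the call and 0 reversed. Counts of members moved more. Counts in this section whose share of all genes is given neither here nor above cannot be read as above or below the background. In the order riebeckite asbestos, riebeckite fragments, tremolite asbestos and tremolite fragments, 31, 7, 6 and 23 members were lower under TMM rescaling, 56, 38, 39 and 49 after quantile normalization, 61, 43, 40 and 51 after rescaling to nuclear genes, 58, 42, 39 and 54 after rescaling to genes other than the members, 31, 13, 12 and 18 with libraries 2 and 3 alone, 46, 9, 11 and 50 when only the groups compared were fitted, 30, 11, 13 and 26 as sums of transcripts (2 higher after riebeckite fragments) and 35, 12, 15 and 33 without a mean-variance trend. Members higher after riebeckite asbestos were 1 with a mean of at least 5 FPKM, with the groups compared, after rescaling to nuclear genes and with libraries 2 and 3 alone.

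Riebeckite asbestos against its fragments had 8 lower members after quantile normalization and after rescaling to nuclear genes, 2 without trend, and 1 with the groups compared or libraries 2 and 3. Riebeckite against tremolite asbestos had 16 lower after quantile normalization, 14 after rescaling to nuclear genes, 4 with the groups compared or as sums of transcripts and 3 with libraries 2 and 3. Riebeckite against tremolite fragments had 1 lower after quantile normalization. The difference between the minerals had 1 lower with a mean of at least 5 FPKM, after quantile normalization, after rescaling to nuclear genes and with libraries 2 and 3. A pseudocount of 0.1 or no filter moved no count of lower members in the 4 treatments. The cause was not tested.

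As a share of genes not encoded by mitochondria, the differences to untreated cells after riebeckite asbestos were -0.574 (large) and -0.383 percentage points (small), and as sums of transcripts -0.579 and -0.383, with -0.561 and -0.390 after tremolite fragments, against -0.443, -0.301, -0.452 and -0.312 as deposited.

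Leaving out each library in turn gave 28 to 47, 7 to 26, 8 to 27 and 21 to 50 lower members in the 4 treatments, 0 to 2 and 1 to 2 higher after riebeckite asbestos and riebeckite fragments, 1 to 8 lower and 0 to 1 higher for riebeckite asbestos against fragments, 3 to 13 lower and 0 to 2 higher against tremolite asbestos, 0 to 4 higher for riebeckite against tremolite fragments, and 0 to 5 lower for the difference between minerals. For riebeckite fragments the count of higher members does not mean that Rps25 held, since its call was lost without untreated library 2. In that fit any member counted as higher was another gene. The differences in share ranged from -0.494 to -0.377, -0.420 to -0.280, -0.436 to -0.303 and -0.502 to -0.385 points for the large subunit and from -0.334 to -0.266, -0.253 to -0.178, -0.312 to -0.199 and -0.346 to -0.277 for the small subunit. Medians ranged from -0.20 to -0.14, -0.14 to -0.06, -0.16 to -0.09 and -0.21 to -0.15 for the large subunit and from -0.19 to -0.12, -0.10 to -0.03, -0.17 to -0.06 and -0.19 to -0.13 for the small.

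With the library number as a block, 48, 21, 37 and 49 members were lower, against 24.9, 23.5, 14.6 and 15.6% of all genes, and 10 for riebeckite asbestos against fragments. The numbers did not meet the rule for pairing, a correlation over 0.1 in every pair. Deviations of same-numbered libraries correlated at -0.0613 to 0.172 over all genes, over 0.1 in 4 of 30 pairs, and 8 of 15 libraries correlated best with their own number. Over the members the range was -0.515 to 0.444, over 0.1 in 10 of 30 pairs, and 5 of 15 libraries correlated best with their own number, although library 1 had the highest members in all 5 groups. The unknown read depth limits which smaller changes could be shown.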

Other observations

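Rpl22, an RNA-binding protein of the large subunit, had another split between its listed transcripts in 1 library. The cause of this split was not tested. Rpl22-208 was at 2.19 FPKM and Rpl22-204 at 68.5 in tremolite asbestos library 2, while the other libraries had 63.5 to 86.7 of Rpl22-208 and 0.576 to 1.27 of Rpl22-204. The gene value of that library, 57.1 FPKM, stood beside 60.8 and 63.8 in the other libraries of its group.

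Rps20, a small subunit protein with 1 listed transcript, varied within groups as much as between them, at 28.7, 24.4 and 24.6 FPKM after riebeckite asbestos, 26.0, 35.8 and 21.8 with riebeckite fragments, 24.8, 20.2 and 35.5 with tremolite asbestos, 33.7, 21.0 and 22.0 after tremolite fragments, and 23.5, 34.0 and 32.0 in untreated cells. It was called in no comparison.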
